A study of Mus musculus with 26 samples.

Results

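Fatty acid oxidation genes of mouse intestinal organoids were followed here in 9 members: Cpt1a, Cpt2, Acadm, Acadl, Acadvl, Hadha, Hadhb, Acaa2 and Ehhadh. They were taken by name, as genes listed in both deposited count tables, and the rule uses no measured value, although earlier results of these data were known when they were picked. They are 9 of the 55385 gene identifiers in each table. Organoids, which are small epithelial structures, were grown in Matrigel from crypts of C57BL/6 mice. All groups shared a medium with EGF, Noggin, R-spondin, N-acetylcysteine, the Wnt pathway activator CHIR-99021, the kinase inhibitor Y-27632, B27 and N2. To this was added vehicle, 25 µM of arachidonic acid (AA) or 50 nM of prostaglandin E2 (PGE2). AA is a polyunsaturated dietary fatty acid from which cells can make prostaglandins, and PGE2 is a prostaglandin made from it. The sources differ on the latter compound, as PGE2 itself in the treatment protocol and as a dimethyl form of it in the design text, and the name PGE2 is kept here for whichever was used. Vehicle, AA and PGE2 were measured on days 1 and 3 with 3 libraries per group, and vehicle and AA on day 6 with 4 libraries per group, 26 libraries in all. The labels give no age, sex or number of mice for the cultures.

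Mitochondrial β-oxidation shortens a fatty acid from its carboxyl end, a pair of carbons per round, and releases acetyl-CoA with electrons for the respiratory chain. Long chains reach the matrix only as carnitine esters, and very long or branched chains are first shortened in peroxisomes. In the small intestine, absorptive enterocytes take up dietary fat, export most of it in chylomicrons and burn some of it, and the nuclear receptors PPARα and PPARδ, which bind fatty acids, are known to control many of these genes.

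Cpt1a (ENSMUSG00000024900.5, chromosome 19) encodes the outer membrane carnitine palmitoyltransferase that commits long chains to import. Cpt2 (ENSMUSG00000028607.16, chromosome 4) encodes the inner membrane enzyme that turns the carnitine ester back into acyl-CoA. The acyl-CoA dehydrogenases of the first step of each round are encoded by Acadvl for very long chains (ENSMUSG00000018574.14, chromosome 11), Acadl for long chains (ENSMUSG00000026003.5, chromosome 1) and Acadm for medium chains (ENSMUSG00000062908.12, chromosome 3). Hadha (ENSMUSG00000025745.12) and Hadhb (ENSMUSG00000059447.13), both on chromosome 5, encode the α and β subunits of the mitochondrial trifunctional protein, which carries out the later steps on long chains. Acaa2 (ENSMUSG00000036880.10) encodes a mitochondrial thiolase of the last step. Ehhadh (ENSMUSG00000022853.7, chromosome 16) encodes the peroxisomal bifunctional enzyme of the middle steps.

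Promoter sequences were taken from RefSeq (GRCm38.p6), in which 8 of the 9 members were matched and 4 are shown. The region before Hadhb is shown because Hadha and Hadhb start 272 bases apart on opposite strands and share it. Cpt1a and Acadl are shown because they had the largest rises with AA among the members, and Ehhadh because it fell with both treatments on day 1. Each line holds the 250 bases before the gene's start, 5′ to 3′ on the gene's strand, and capitals mark every match, on either strand, to GGGCGG (a GC box), TGACG (the core of a cAMP response element) or AGGTCA (a hexamer bound by nuclear receptors).
Hadhb, chr5:30155003-30155252, plus strand: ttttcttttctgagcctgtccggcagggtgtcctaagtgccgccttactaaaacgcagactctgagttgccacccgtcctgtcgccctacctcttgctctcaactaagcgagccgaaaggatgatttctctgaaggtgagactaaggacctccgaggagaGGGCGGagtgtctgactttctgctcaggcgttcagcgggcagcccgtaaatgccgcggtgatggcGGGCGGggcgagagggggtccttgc
Cpt1a, chr19:3323051-3323300, plus strand: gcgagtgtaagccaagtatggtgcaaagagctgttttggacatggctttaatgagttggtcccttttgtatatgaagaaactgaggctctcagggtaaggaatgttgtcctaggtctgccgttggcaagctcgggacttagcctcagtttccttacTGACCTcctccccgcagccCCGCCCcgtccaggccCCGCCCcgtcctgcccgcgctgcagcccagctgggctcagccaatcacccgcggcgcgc
Acadl, chr1:66863310-66863559, minus strand: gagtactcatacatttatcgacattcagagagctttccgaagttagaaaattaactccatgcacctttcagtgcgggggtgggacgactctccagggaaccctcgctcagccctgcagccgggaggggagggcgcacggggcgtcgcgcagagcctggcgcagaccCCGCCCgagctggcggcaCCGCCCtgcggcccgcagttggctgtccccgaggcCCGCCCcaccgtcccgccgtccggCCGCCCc
Ehhadh, chr16:21787835-21788084, minus strand: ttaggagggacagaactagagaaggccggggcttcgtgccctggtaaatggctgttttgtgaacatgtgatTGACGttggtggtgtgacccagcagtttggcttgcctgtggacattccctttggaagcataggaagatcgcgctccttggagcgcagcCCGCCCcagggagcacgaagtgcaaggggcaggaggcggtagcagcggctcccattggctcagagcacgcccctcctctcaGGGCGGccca
The GC box stood in 6 of the 8 matched member promoters and in 32.7% of all 32851 promoters of the same length. The windows of Hadha and Hadhb overlap, and the match before Hadha is one of those before Hadhb. GC content was above the median of all promoters (52.4%) in 7 of the 8. AGGTCA stood in 3 (Acadm, Acadvl and Cpt1a), against 14.0% of all promoters, and TGACG in 2 (Acadm and Ehhadh), against 17.8%. A direct repeat of AGGTCA with 1 base of any kind between the copies, the layout bound by PPAR with its partner RXR, was in 0 of the 8 and in 0.0335% of all promoters. A looser form of the repeat, with AGGNCA for each copy, contains it and was in 0 of the 8 and in 0.338%. These are counts of letters in a short window and say nothing of binding.

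Total counts per library were 10088285 to 14615719 on days 1 and 3 and 16141385 to 19762827 on day 6, and the members held 313 (Ehhadh) to 5845 (Hadha) counts in each library. The share of mitochondrial ribosomal RNA was 6.74% to 10.3% on days 1 and 3 but 0.00305% to 0.266% on day 6, so library content and day cannot be told apart for levels on day 6. Markers of intestinal epithelium summed to 5497 to 15526 CPM (counts scaled to a common library total, with TMM factors from edgeR within each table). Those of fibroblasts and muscle summed to 0.753 to 3.33 CPM, of immune cells to 1.69 to 7.22 CPM and of endothelium and nerve to 1.92 to 5.77 CPM, with Dcn, Lum, Cd4 and Kdr at 0 in most groups. Vehicle replicate 4 of day 6 differed most from its group: the chi-square per degree of freedom over genes was 22.4 to 25.2 in its pairs and 5.94 to 13.8 in the other pairs of that group, and results of day 6 are given with and without it where they change. Nothing in the labels ties replicates to separate cultures or mice, so p-values measure only the spread between these libraries.

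Every member was expressed in every library, at levels that differed between genes. Per kilobase of the longest principal transcript, Acaa2 was highest in each of the 8 groups, at 77.0 ± 5.86 CPM per kb in vehicle on day 1 (mean ± SD, n = 3), although its libraries overlapped those of Acadl with PGE2 on day 1. Hadha (50.4 ± 1.92) and Acadl (48.7 ± 1.84) followed with overlapping libraries, then Acadvl (42.3 ± 0.942), Hadhb (36.8 ± 1.66), Acadm (27.9 ± 1.36), Cpt2 (21.9 ± 0.572), Cpt1a (19.8 ± 0.557) and Ehhadh (16.4 ± 1.00), with no overlap between neighbours. In that group the import enzymes thus stood below the enzymes of the matrix cycle. Cpt1a moved over the most places. It ranked 8 in vehicle on day 1 and 6 with AA (34.2 ± 1.36 CPM per kb), and 9 in vehicle on day 3 (14.9 ± 1.20) and 7 with AA (29.6 ± 2.55), where its libraries overlapped those of Acadm (31.1 ± 1.40).

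**Figure D1:**
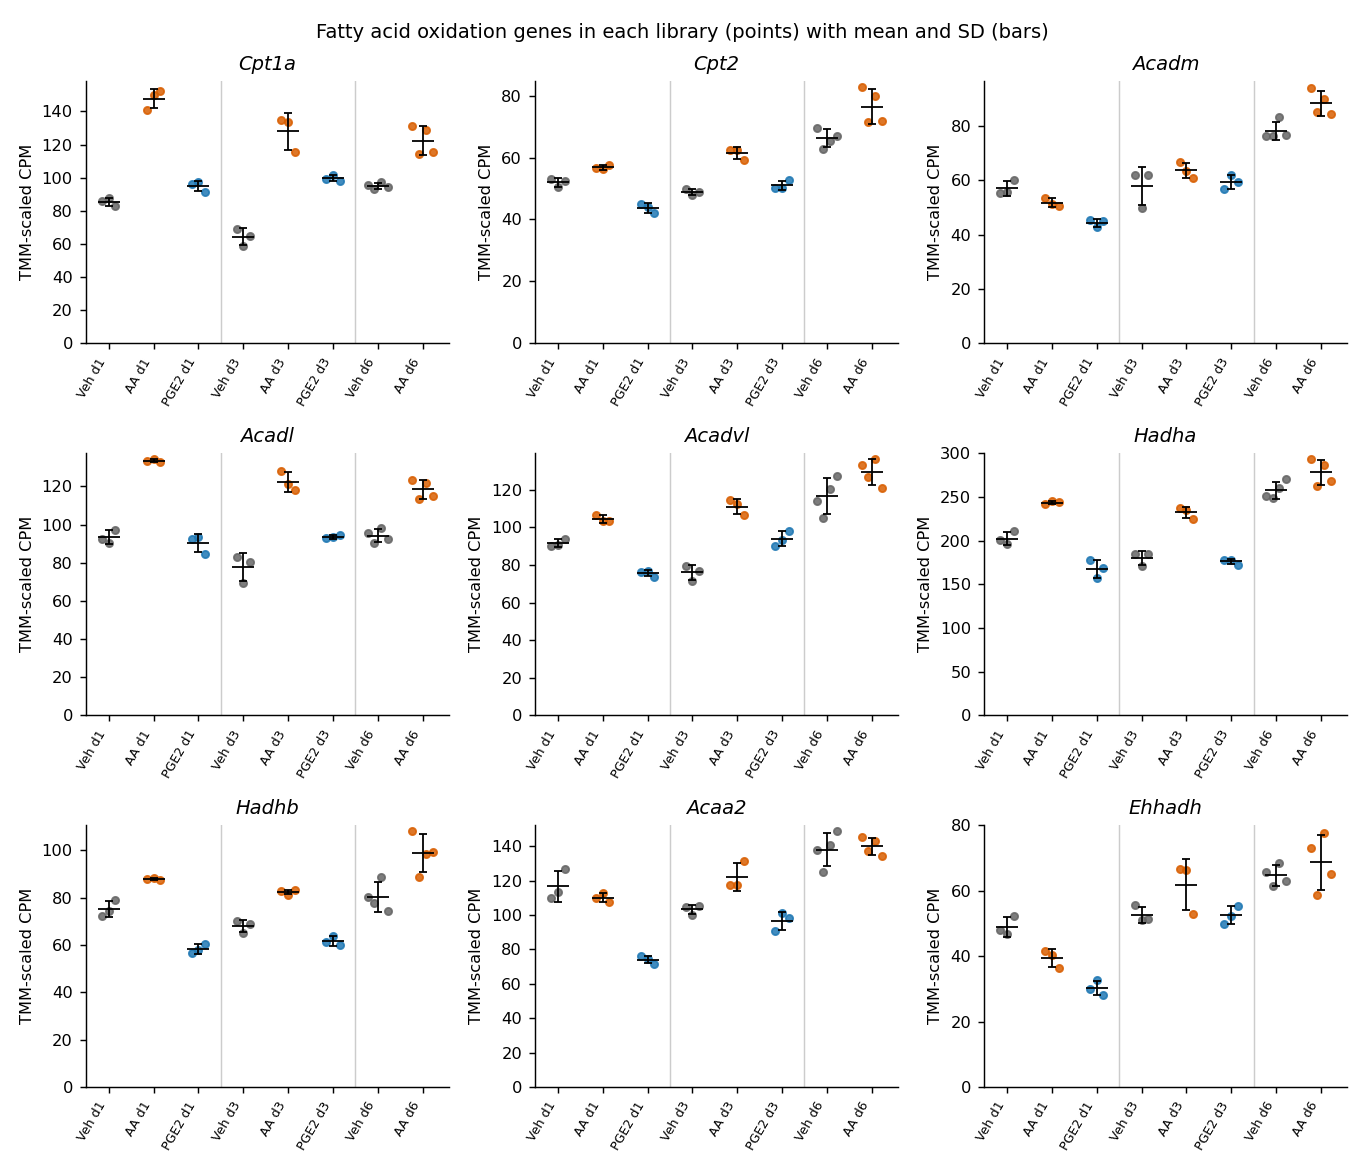
TMM-scaled CPM (vertical axis, from 0) of each member in each of the 26 libraries (points), with the group mean and SD (bars), by treatment and day. With AA on day 3, Cpt1a lies at 115 to 135 CPM against 58.9 to 69.3 in vehicle, while with PGE2 on day 1, Ehhadh lies at 28.2 to 32.6 against 46.7 to 52.3.

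The first comparison asked how the oxidation genes stood after 1 day of AA. Genes of long-chain import and of the long-chain steps were higher, while the peroxisomal gene Ehhadh was lower. Cpt1a was at 85.6, 88.0 and 83.2 CPM in the vehicle libraries and at 141, 150 and 152 CPM with AA. All AA libraries lay well above all vehicle libraries, and the rise was 1.73-fold (log2 fold change 0.79 ± 0.06, SE; adjusted p = 9.0e-13, edgeR quasi-likelihood test). Acadl was at 92.6, 90.2 and 97.2 CPM in vehicle and at 134, 134 and 133 CPM with AA. Again the groups were far apart, a rise of 0.52 ± 0.05. Both trifunctional protein subunits rose, Hadha from 202 ± 7.71 to 244 ± 1.75 CPM (0.27 ± 0.05) and Hadhb from 75.3 ± 3.40 to 88.0 ± 0.409 CPM (0.22 ± 0.05). Acadvl (0.19 ± 0.05) and Cpt2 (0.13 ± 0.05) rose less.

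Ehhadh went the other way on day 1. Its vehicle libraries were at 47.9, 46.7 and 52.3 CPM and its AA libraries at 41.6, 40.3 and 36.5 CPM. Every AA library was below every vehicle library, a fall by 0.31 ± 0.08 on the log2 scale (adjusted p = 0.0019). Acadm, at 57.0 ± 2.78 and 51.8 ± 1.49 CPM, and Acaa2, at 117 ± 8.89 and 110 ± 2.46 CPM, did not pass the test (-0.14 ± 0.07, adjusted p = 0.090, and -0.08 ± 0.05, adjusted p = 0.22). In all, 6 members rose, 1 fell and 2 were not called, when 41.7% of the 14850 genes tested passed, 19.5% higher and 22.2% lower. The median log2 fold change was 0.19 over the members and -0.03 over all genes. The rise of Cpt2 (adjusted p = 0.039) was lost when any single library was left out (0.11 to 0.14), with total counts as the only scaling, with no filter and with DESeq2.

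In bulk libraries such as these, a change in the number of cells of a type and a change in RNA per cell cannot be told apart. The 15 markers of enterocytes summed to 2935 to 3102 CPM in vehicle and 4199 to 4412 CPM with AA on day 1, with 10 higher, 1 lower and 4 not called, and 0 of the 15 were at 0 in any group. The 10 crypt base stem cell markers summed to 898 to 934 and 507 to 526 CPM, with 1 higher, 7 lower and 2 not called. Their part in the members' changes was not tested, here or in the comparisons that follow.

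After 3 days of AA, 8 members rose and no member fell, with Cpt1a and the long-chain dehydrogenases in front. Cpt1a was at 69.3, 58.9 and 64.7 CPM in vehicle and at 135, 133 and 115 CPM with AA. The lowest AA library was far above the highest vehicle library, a 1.98-fold rise (0.99 ± 0.06, adjusted p = 2.1e-14). Acadl, at 82.9, 69.4 and 80.6 CPM in vehicle, was at 128, 121 and 118 CPM with AA (0.66 ± 0.06). Acadvl, at 79.7, 71.6 and 76.7 CPM in vehicle, was at 114, 112 and 106 CPM with AA (0.55 ± 0.05). Both dehydrogenases thus had groups that did not overlap. The antisense neighbour Dvl2 shares 1151 exon bases with Acadvl and reached 29.9 CPM, and whether counting used strand is not stated in the sources.

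The remaining members had smaller fold changes on day 3. Hadha rose from 180 ± 7.92 to 233 ± 6.38 CPM (0.37 ± 0.05) and Hadhb from 68.0 ± 2.53 to 82.4 ± 0.995 CPM (0.28 ± 0.05). Cpt2 rose from 48.8 ± 0.927 to 61.4 ± 1.88 CPM (0.33 ± 0.05) and Acaa2 from 103 ± 2.75 to 122 ± 7.98 CPM (0.24 ± 0.06). Ehhadh was at 55.5, 51.1 and 51.3 CPM in vehicle and at 66.7, 66.3 and 52.8 CPM with AA. AA replicate 3 lay within the vehicle range, and the rise of 0.23 ± 0.08 (adjusted p = 0.015) was lost without AA replicate 1 (0.17, adjusted p = 0.11), AA replicate 2 (0.18) or vehicle replicate 2 (0.21), with total counts as the only scaling (0.17) and when only these groups were fitted (0.23). Acadm, at 62.1, 49.6 and 61.8 CPM in vehicle and 66.6, 63.2 and 60.9 CPM with AA, was not called (0.13 ± 0.07, adjusted p = 0.10). Its vehicle replicate 2 was low, and it passed without vehicle replicate 1 (0.20, adjusted p = 0.032) or 3 (0.20, adjusted p = 0.039).

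On day 3, then, 8 members rose, 0 fell and 1 was not called, when 41.3% of all genes tested passed, 21.2% higher and 20.1% lower, with a median of 0.33 over the members and -0.03 over all genes. With total counts as the only scaling, the calls over all genes were 2459 higher and 3903 lower in place of 3143 and 2986, while the called members kept their direction. Enterocyte markers summed to 3141 to 3224 CPM in vehicle and 4925 to 5781 CPM with AA (13 higher, 0 lower, 2 not called), and crypt base markers to 2215 to 2320 and 776 to 821 CPM (0 higher, 9 lower, 1 not called). Among the AA libraries, replicate 3 was lowest for 7 members and for the summed enterocyte markers, and highest for Hadhb and Acaa2. Cell cycle genes had 0 higher, 3 lower and 7 not called.

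After 6 days of AA, 5 members rose and none fell. Cpt1a was at 95.6, 93.2, 97.2 and 94.6 CPM in vehicle and at 131, 114, 129 and 116 CPM with AA. Each AA library exceeded each vehicle library, and the rise was 1.29-fold (0.36 ± 0.06, adjusted p = 6.8e-04). Acadl rose from 94.1 ± 3.40 to 118 ± 4.90 CPM (0.33 ± 0.05) and Hadhb from 80.2 ± 6.30 to 98.6 ± 8.02 CPM (0.30 ± 0.07). For Hadhb the lowest AA library, at 88.6 CPM, lay just under the highest vehicle library, at 88.9 CPM. Cpt2 (0.21 ± 0.06, adjusted p = 0.024) and Acadm (0.18 ± 0.06, adjusted p = 0.030) rose, but each lost its call in 4 of the 8 fits that left out 1 library. For Cpt2 these were the fits without vehicle replicate 2 or 3 or without AA replicate 1 or 3 (0.17 to 0.20), and for Acadm those without vehicle replicate 1 or 2 or without AA replicate 1 or 3 (0.15 to 0.17). Acadm also lost its call with total counts as the only scaling (0.17).

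Acadvl, Hadha, Acaa2 and Ehhadh were not called on day 6. Their log2 fold changes were 0.15 ± 0.07 (adjusted p = 0.10), 0.11 ± 0.06 (0.15), 0.02 ± 0.06 (0.83) and 0.09 ± 0.08 (0.45). The 95% interval of Acaa2 ran from -0.10 to 0.14. Without vehicle replicate 4, Acadvl (0.19, adjusted p = 0.013) and Hadha (0.14, adjusted p = 0.040) passed. The count on day 6 was 5 higher, 0 lower and 4 not called, when 30.7% of the 14663 genes tested passed, 15.3% higher and 15.5% lower. The median was 0.18 over the members and -0.01 over all genes. The count was 7 without vehicle replicate 4, and 3 without vehicle replicate 2, AA replicate 1 or AA replicate 3. Enterocyte markers summed to 3125 to 3644 CPM in vehicle and 5071 to 5972 CPM with AA (10 higher, 2 lower, 3 not called). Crypt base markers summed to 887 to 1067 and 637 to 877 CPM (1 higher, 7 lower, 2 not called). Cell cycle genes had 0 higher, 7 lower and 3 not called.

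With PGE2, most members fell on day 1. Ehhadh was at 47.9, 46.7 and 52.3 CPM in vehicle and at 30.1, 32.6 and 28.2 CPM with PGE2. The groups were far apart, a 1.62-fold fall (-0.70 ± 0.08, adjusted p = 3.5e-08). Acaa2, at 110, 113 and 127 CPM in vehicle, was at 76.1, 74.2 and 71.7 CPM with PGE2. It fell 1.58-fold (-0.66 ± 0.06, adjusted p = 2.5e-11), and here too no libraries overlapped. The peroxisomal enzyme and the thiolase thus had the largest falls among the members. Hadhb (-0.37 ± 0.05), Acadm (-0.36 ± 0.07), Acadvl (-0.28 ± 0.05), Hadha (-0.27 ± 0.05) and Cpt2 (-0.25 ± 0.05) also fell.

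The exceptions on day 1 of PGE2 were Cpt1a and Acadl, which had led the rises with AA. Acadl, at 92.6, 93.3 and 84.7 CPM with PGE2, overlapped the vehicle libraries and was not called (-0.05 ± 0.06, adjusted p = 0.47, 95% interval -0.16 to 0.06). Cpt1a, at 96.4, 97.3 and 91.7 CPM, lay just above the vehicle libraries and rose (0.15 ± 0.06, adjusted p = 0.029). That call was lost with total counts as the only scaling (0.07, adjusted p = 0.34), with no filter, with DESeq2 and without vehicle replicate 1 or 3 or PGE2 replicate 1 or 2 (0.13 to 0.15). In all, 1 member rose, 7 fell and 1 was not called, when 55.9% of all genes tested passed, 27.0% higher and 28.9% lower. The median was -0.28 over the members and -0.02 over all genes. Enterocyte markers were split with PGE2, with 7 higher, 6 lower and 2 not called (median 0.03), although their sum went from 2935 to 3102 CPM in vehicle to 4057 to 4116 CPM. Crypt base markers summed to 356 to 378 against 898 to 934 CPM (1 higher, 8 lower, 1 not called).

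On day 3 of PGE2, 3 members rose and 1 fell. Cpt1a was at 99.4, 102 and 97.9 CPM, against 69.3, 58.9 and 64.7 CPM in vehicle. The groups were clearly apart, a 1.55-fold rise (0.63 ± 0.06, adjusted p = 1.8e-10). Acadvl (0.31 ± 0.05), at 94.0 ± 4.05 CPM, and Acadl (0.27 ± 0.06), at 93.7 ± 1.03 CPM, also rose. Hadhb fell from 68.0 ± 2.53 to 61.6 ± 2.01 CPM (-0.14 ± 0.05, adjusted p = 0.014), a call lost without PGE2 replicate 3 (-0.12, adjusted p = 0.074) and when only these 2 groups were fitted.

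Acaa2 and Ehhadh, which had the largest falls on day 1, were not called on day 3. Acaa2 was at 96.5 ± 5.44 CPM (-0.10 ± 0.06, adjusted p = 0.14), and passed the test without PGE2 replicate 2 (-0.15, adjusted p = 0.047). Ehhadh was at 52.5 ± 2.72 CPM (0.00 ± 0.08, adjusted p = 0.97, 95% interval -0.15 to 0.14). Cpt2 (0.06 ± 0.05), Acadm (0.04 ± 0.07) and Hadha (-0.03 ± 0.05) were not called either. The count was 3 higher, 1 lower and 5 not called, when 58.9% of all genes tested passed, 28.9% higher and 30.1% lower, with a median of 0.04 over the members and -0.04 over all genes. The members' share called, 4 of 9, was thus near that of all genes. Enterocyte markers summed to 5975 to 6523 CPM with PGE2 on day 3, against 3141 to 3224 CPM in vehicle (13 higher, 1 lower, 1 not called). Crypt base markers summed to 462 to 502 CPM, against 2215 to 2320 CPM in vehicle (1 higher, 9 lower, 0 not called). All 10 cell cycle genes were lower (median -0.43).

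**Figure D2:**
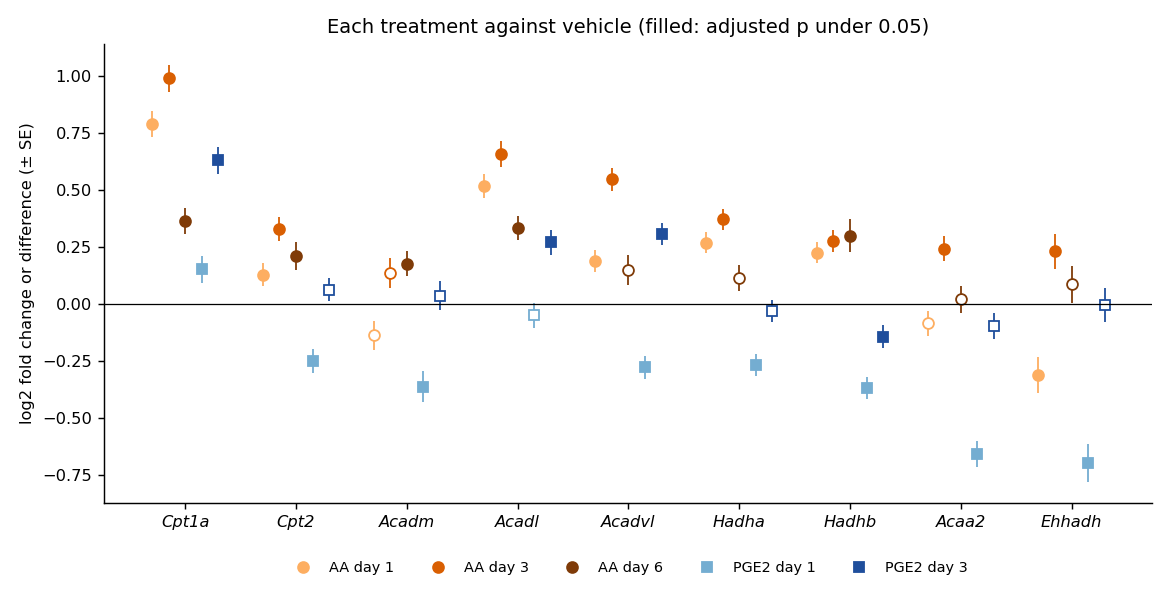
Log2 fold change of each member against vehicle (vertical axis; points with SE bars), for AA on days 1, 3 and 6 (circles) and PGE2 on days 1 and 3 (squares), filled where the adjusted p was under 0.05. Cpt1a is highest at 0.99 with AA on day 3, and Ehhadh lowest at -0.70 with PGE2 on day 1.

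AA and PGE2 were then compared with each other, since the comparisons above share their vehicle libraries. The compounds were given at different doses (25 µM and 50 nM), so the values describe these cultures and not equal exposures. On day 1 each member was higher with AA than with PGE2. The largest difference was that of Cpt1a, at 141 to 152 CPM with AA and 91.7 to 97.3 CPM with PGE2 (0.64 ± 0.06, adjusted p = 2.6e-10). Hadhb (0.59 ± 0.05), Acaa2 (0.57 ± 0.06), Acadl (0.57 ± 0.05) and Hadha (0.53 ± 0.05) were close behind. Acadvl (0.47 ± 0.05), Ehhadh (0.39 ± 0.08), Cpt2 (0.38 ± 0.05) and Acadm (0.22 ± 0.07) differed less, and the call of Acadm was lost without AA replicate 1 (0.20, adjusted p = 0.063). The count was 9 higher and 0 lower, when 27.7% of all genes tested passed, 11.3% higher and 16.5% lower. The median was 0.53 over the members and -0.01 over all genes. With total counts as the only scaling the calls over all genes were 2570 higher and 1746 lower in place of 1671 and 2448, while all 9 members remained higher.

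On day 3, 8 members were again higher with AA, led by the trifunctional protein subunits. Hadhb was at 82.4 ± 0.995 CPM with AA and at 61.6 ± 2.01 CPM with PGE2. The groups did not overlap (0.42 ± 0.05, adjusted p = 4.1e-08). Its partner Hadha (0.40 ± 0.05), Acadl (0.39 ± 0.05), Cpt1a (0.36 ± 0.06), Acaa2 (0.34 ± 0.06), Cpt2 (0.27 ± 0.05), Acadvl (0.24 ± 0.05) and Ehhadh (0.23 ± 0.07) were also higher. Ehhadh had overlapping libraries, and its call was lost without AA replicate 1 (0.17) or 2 (0.19) or without PGE2 replicate 1 (0.20). Acadm was not called (0.10 ± 0.06, adjusted p = 0.25, 95% interval -0.03 to 0.22). The count was 8 higher, 0 lower and 1 not called, when 38.5% of all genes tested passed, 18.1% higher and 20.3% lower. The median was 0.34 over the members and -0.01 over all genes. Enterocyte markers went both ways between AA and PGE2 on both days, with 6 higher, 3 lower and 6 not called on day 1 and 6 higher, 7 lower and 2 not called on day 3. Crypt base markers were mostly higher with AA than with PGE2. On day 1, 7 were higher, 1 lower and 2 not called (median 0.76), and on day 3, 8, 1 and 1 (0.63). All 10 cell cycle genes were higher with AA than with PGE2 on day 3 (median 0.36), and 1 was on day 1.

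Vehicle organoids themselves changed between days 1 and 3. Cpt1a fell from 85.6 ± 2.40 to 64.3 ± 5.18 CPM (-0.41 ± 0.06, adjusted p = 3.4e-06), the largest fall among the members. Acadvl (-0.27 ± 0.05), Acadl (-0.26 ± 0.06), Acaa2 (-0.18 ± 0.06), Hadha (-0.17 ± 0.05) and Hadhb (-0.15 ± 0.05) fell too. Cpt2 (-0.09 ± 0.05), Acadm (0.02 ± 0.07) and Ehhadh (0.11 ± 0.08) were not called. The count was 0 higher, 6 lower and 3 not called, when 40.3% of all genes tested passed, 19.8% higher and 20.5% lower, with a median of -0.17 over the members and 0.04 over all genes. With total counts as the only scaling, the calls over all genes were 3726 higher and 2042 lower in place of 2943 and 3039, and Hadha (-0.10), Hadhb (-0.08) and Acaa2 (-0.11) lost their calls. Hadhb and Acaa2 also lost theirs without vehicle replicate 3 of day 1 (-0.11 and -0.12), and Hadhb without vehicle replicate 2 of day 3 (-0.12) and when only these groups were fitted (-0.14). Over the same days the summed crypt base markers went from 898 to 934 CPM on day 1 to 2215 to 2320 CPM on day 3 (7 higher, 0 lower, 3 not called). All 10 cell cycle genes were lower on day 3 (median -0.36), and enterocyte markers were split, with 7 higher, 4 lower and 4 not called.

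Whether the responses themselves differed between days was tested as a difference of fold changes, day 3 minus day 1. For PGE2 all 9 members moved upward, when 24.2% of all genes tested passed, 12.6% higher and 11.6% lower. The difference was largest for Ehhadh (0.69 ± 0.11, adjusted p = 2.8e-05), Acadvl (0.58 ± 0.07) and Acaa2 (0.56 ± 0.08). It was 0.48 ± 0.08 for Cpt1a, 0.40 ± 0.10 for Acadm, 0.32 ± 0.08 for Acadl and 0.31 ± 0.07 for Cpt2. Hadha (0.24 ± 0.07) and Hadhb (0.23 ± 0.07) had the smallest, and these calls were the least stable: Hadha lost its call without PGE2 replicate 2 of day 1 (0.16) or of day 3 (0.20), and Hadhb without PGE2 replicate 1 or 2 of day 1, PGE2 replicate 2 of day 3, or vehicle replicate 3 of either day (0.17 to 0.21). Hadhb also lost it with no filter (0.21), with the stricter filter (0.19) and with DESeq2 (0.21). The median was 0.40 over the members and -0.02 over all genes. With total counts as the only scaling, the calls over all genes were 2221 higher and 1277 lower in place of 1876 and 1716.

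For AA the same difference was positive for 9 members and passed for 5, when 18% of all genes tested passed, 10% higher and 7.95% lower. Ehhadh again had the largest (0.54 ± 0.11, adjusted p = 6.7e-04), going from a fall on day 1 to a rise on day 3. Acadvl (0.36 ± 0.07) and Acaa2 (0.33 ± 0.08) followed, then Acadm (0.27 ± 0.09, adjusted p = 0.038) and Cpt2 (0.20 ± 0.07, adjusted p = 0.049). The calls of Acadm and Cpt2 did not hold: Cpt2 lost its call (0.19 to 0.21) without any single library other than vehicle replicate 2 of day 1. Acadm lost its call without vehicle replicate 3 or AA replicate 2 or 3 of day 1, or vehicle replicate 2 or AA replicate 1 or 2 of day 3 (0.18 to 0.28). Both also lost their calls with total counts as the only scaling, with the stricter filter, with mitochondrial and rRNA-like genes left out, with DESeq2 and with only the groups compared. Cpt2 lost its call as well with edgeR's RLE size factors (relative log expression), with no filter and with the replicate block. Cpt1a (0.20 ± 0.08, adjusted p = 0.088), Acadl (0.14 ± 0.08), Hadha (0.10 ± 0.07) and Hadhb (0.05 ± 0.07), which had risen on both days, were not called, though Cpt1a passed without vehicle replicate 1 (0.25, adjusted p = 0.047) or AA replicate 3 (0.25, adjusted p = 0.020) of day 3. The median was 0.20 over the members and 0.00 over all genes, and with total counts as the only scaling the calls over all genes were 986 higher and 1410 lower in place of 1487 and 1181. Both differences contain the vehicle libraries of both days, so they are not independent of each other.

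The AA response on day 6 minus that on day 3, fitted over all 26 libraries, was negative for 7 members and passed for 5, when 19.1% of the 15504 genes tested passed, 8.78% higher and 10.4% lower. Cpt1a had the largest loss (-0.64 ± 0.09, adjusted p = 1.9e-06), from a 1.98-fold to a 1.29-fold rise. Acadvl (-0.41 ± 0.08), Acadl (-0.34 ± 0.08), Hadha (-0.27 ± 0.07) and Acaa2 (-0.24 ± 0.08, adjusted p = 0.043) also passed, and Acaa2 lost its call (-0.17 to -0.26) without vehicle replicate 1 or 2 or AA replicate 2 or 3 of day 3, or vehicle replicate 1, 3 or 4 or AA replicate 2, 3 or 4 of day 6. Acaa2 lost it too with edgeR's RLE size factors, with no filter, with total counts as the only scaling and with only the groups compared. Hadha lost its call with total counts (-0.20). Hadhb (0.01 ± 0.09, 95% interval -0.16 to 0.18), Acadm (0.03 ± 0.09), Cpt2 (-0.13 ± 0.08) and Ehhadh (-0.16 ± 0.11) did not pass. The subunits of the trifunctional protein thus fell on different sides of the threshold, a difference between them that was not tested. The median was -0.24 over the members and 0.00 over all genes. With total counts as the only scaling, 1747 genes were higher and 1020 lower in place of 1362 and 1607, and 3 members passed.

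**Figure D3:**
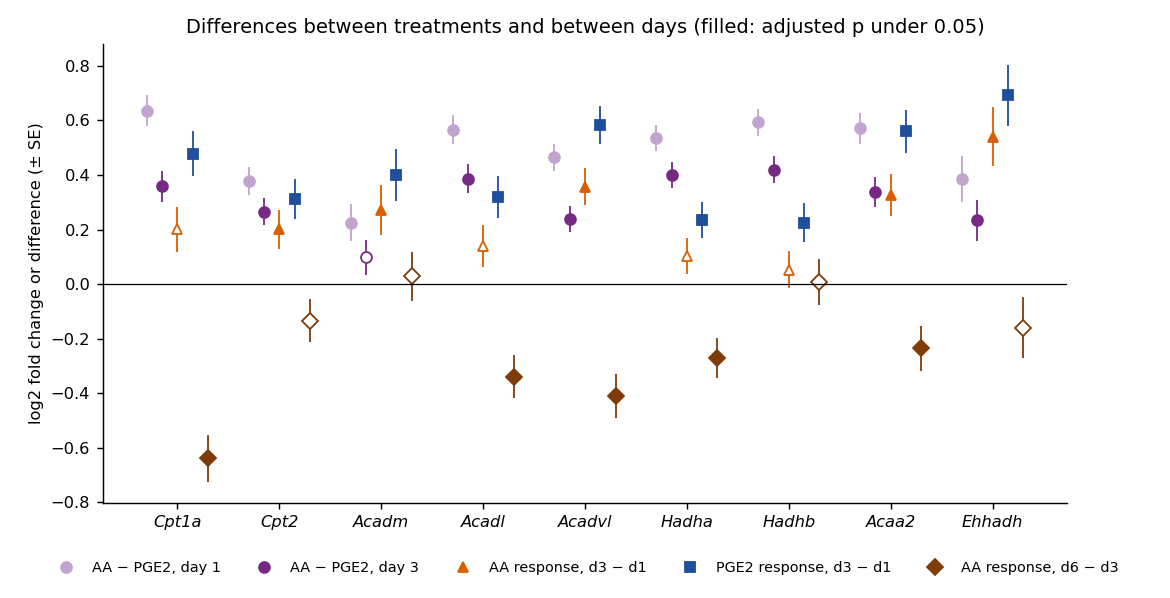
Differences on the log2 scale (vertical axis; points with SE bars) for each member: AA minus PGE2 on days 1 and 3, the AA and the PGE2 response on day 3 minus day 1, and the AA response on day 6 minus day 3; filled where the adjusted p was under 0.05. All differences of AA minus PGE2 lie above 0, from 0.10 to 0.64, while the day 6 minus day 3 values reach -0.64 for Cpt1a.

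The members were next set beside the other genes of the pathway, in lists drawn from general knowledge. Their counts stand beside the shares of all genes called given above: 41.7%, 41.3% and 30.7% for AA on days 1, 3 and 6, 55.9% and 58.9% for PGE2 on days 1 and 3, and 27.7% and 38.5% for AA against PGE2. The activation and carnitine shuttle list holds the enzymes and carriers that bring fatty acids to the mitochondrion. Of its 9 members tested, 4 rose and 4 fell with AA on day 1, 5 rose and 2 fell on day 3, and of 10 tested on day 6, 6 rose and 1 fell. Slc25a20, the carnitine-acylcarnitine carrier that works between Cpt1a and Cpt2, was at 17.8 ± 0.810 CPM in vehicle and 28.7 ± 1.20 CPM with AA on day 3 (0.69 ± 0.08). It rose on days 1 (0.36 ± 0.08) and 6 (0.41 ± 0.07) as well, and like Acadvl fell with PGE2 on day 1 (-0.36 ± 0.09) and rose on day 3 (0.39 ± 0.09). Acsl5, a long-chain acyl-CoA synthetase of enterocytes, and Slc27a4, a fatty acid transport protein, rose with both compounds, by 0.77 ± 0.05 and 0.88 ± 0.05 with AA on day 3 and by 1.04 ± 0.05 and 0.93 ± 0.05 with PGE2. Slc27a2, an acyl-CoA synthetase for very long chains, fell in each comparison with vehicle, most with PGE2 on day 1, from 35.9 ± 0.925 to 5.14 ± 0.621 CPM (-2.82 ± 0.09). With PGE2, 3 of the list rose and 5 fell on day 1, and 7 rose and 2 fell on day 3. Between AA and PGE2, 2 were higher and 3 lower with AA on day 1 (median -0.05). On day 3, 2 were higher and 4 lower (-0.11). Cpt1b, the muscle form of Cpt1a, was under 1 CPM in every group.

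None of the 12 other mitochondrial β-oxidation enzymes rose with either compound on any day measured. With AA, 0 rose and 8 fell on day 1 (median -0.36), 0 rose and 3 fell on day 3 (-0.03) and 0 rose and 3 fell on day 6 (-0.11). With PGE2, 0 rose and 11 fell on day 1 (-0.58) and 0 rose and 7 fell on day 3 (-0.21). The share called with PGE2 on day 3, 7 of 12, was near that of all genes, of which 30.1% were lower. With AA on days 3 and 6 the share called, 3 of 12 each time, was below that of all genes. Hadh, the dehydrogenase of short and medium hydroxyacyl-CoA, was at 177 ± 12.5 CPM in vehicle on day 1, 109 ± 5.51 CPM with AA (-0.69 ± 0.05) and 63.6 ± 0.961 CPM with PGE2 (-1.47 ± 0.05). Acat1, the mitochondrial acetoacetyl-CoA thiolase, fell in every comparison with vehicle, by 0.47 ± 0.07 with AA on day 3 and by 0.95 ± 0.07 with PGE2 on day 3. Acadsb, a short branched-chain dehydrogenase, fell with AA on days 1 (-0.65 ± 0.06) and 3 (-0.38 ± 0.06), and Acads, the short-chain dehydrogenase, was not called in any of the 5 (-0.08 to 0.14). Direct comparison of AA with PGE2 gave 7 higher and 0 lower on day 1 and 6 higher and 0 lower on day 3. That direction was seen in the members but not in the activation and carnitine shuttle list.

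Other peroxisomal genes stood higher against vehicle on day 3 than on day 1, as Ehhadh did. The day 3 minus day 1 difference passed upward for 9 of 18 with AA and 16 of 18 with PGE2, and downward for 0. Among all genes tested, 18% passed in either direction with AA and 24.2% with PGE2. The shift was not particular to peroxisomal genes. Of 17 tricarboxylic acid cycle enzymes, 13 passed upward with AA, 15 with PGE2 and 0 downward. In the activation and carnitine shuttle list, 6 and 8 of 9 did, again with 0 downward. The 11 ketone body and PPAR-responsive genes were mixed, with 3 higher and 2 lower with AA and 4 and 1 with PGE2. Of the 18 peroxisomal genes tested, 5 rose and 6 fell with AA on day 1 (median 0.00). On day 3 of AA, 12 rose and 0 fell (0.27). With PGE2, 4 rose and 10 fell on day 1 (-0.27), and 11 rose and 2 fell on day 3 (0.40). Between AA and PGE2, 9 were higher and 0 lower with AA on day 1 (0.21). On day 3 they went both ways, with 9 higher and 5 lower (0.07). Crot, the peroxisomal carnitine octanoyltransferase, rose in each comparison with vehicle, by 0.80 ± 0.06 with AA and 0.61 ± 0.06 with PGE2 on day 3. Abcd3, a peroxisomal fatty acid transporter, rose by 0.57 ± 0.05 with both on day 3. Acox2, which acts on branched chains, fell with PGE2 on days 1 (-1.12 ± 0.09) and 3 (-0.73 ± 0.09). Acaa1b, a peroxisomal thiolase, rose with AA on day 3 (1.31 ± 0.17), but is near identical to Acaa1a, so reads may be split between them. Abcd2 and Hacl1 were under 1 CPM in every group.

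Among 12 regulators, 3 rose and 5 fell with AA on day 1, 8 rose and 0 fell on day 3 and 6 rose and 0 fell on day 6. With PGE2, 2 rose and 7 fell on day 1, and 5 rose and 1 fell on day 3. The share called with PGE2 on day 3, 6 of 12, was near that of all genes. Between AA and PGE2, 6 were higher and 2 lower with AA on day 1. On day 3, 3 were higher and 1 lower, a share near that of all genes. Ppard, which encodes PPARδ, was at 44.0 ± 5.80 CPM in vehicle on day 1, 66.6 ± 2.89 CPM with AA (0.59 ± 0.07) and 98.7 ± 5.30 CPM with PGE2 (1.16 ± 0.07). Hnf4g, a nuclear receptor of enterocytes, rose with AA on days 1 (0.32 ± 0.06) and 3 (0.92 ± 0.06), fell with PGE2 on day 1 (-0.58 ± 0.07) and rose on day 3 (0.77 ± 0.06). Ppargc1a, a coactivator of mitochondrial genes, rose with AA on days 3 (0.37 ± 0.13) and 6 (0.76 ± 0.12) and fell with PGE2 on days 1 (-0.55 ± 0.19) and 3 (-0.36 ± 0.13).

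Of 11 ketone body and PPAR-responsive genes, 6 rose and 2 fell with AA on day 1 (median 0.92), 8 rose and 1 fell on day 3 (0.51) and 4 rose and 1 fell on day 6 (0.22). With PGE2, 3 rose and 5 fell on day 1, and 7 rose and 4 fell on day 3. Between AA and PGE2, 6 were higher and 2 lower with AA on day 1, and 5 higher and 1 lower on day 3. Angptl4, a secreted inhibitor of lipoprotein lipase, rose with both compounds, from 23.0 ± 0.378 CPM in vehicle to 60.5 ± 4.72 CPM with AA (1.40 ± 0.08) and 71.1 ± 2.53 CPM with PGE2 (1.63 ± 0.08) on day 1. Acot1, an acyl-CoA thioesterase with a near-identical neighbour, Acot2, fell by 2.18 ± 0.08 with PGE2 on day 1 and by 0.43 ± 0.07 with AA. Cyp4a10 was under 1 CPM in every group.

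The 17 tricarboxylic acid cycle enzymes, which take up the acetyl-CoA released by β-oxidation, mostly fell on day 1, with 1 higher and 12 lower with AA (median -0.23) and 1 higher and 14 lower with PGE2 (-0.43). On day 3, 6 rose and 1 fell with AA (0.06), and 4 rose and 10 fell with PGE2 (-0.17), and on day 6 of AA, 1 rose and 1 fell. With AA the share called was near that of all genes on day 3 (7 of 17) and below it on day 6 (2 of 17). Mdh2, the mitochondrial malate dehydrogenase, had the largest rise of the list with AA on day 3 (0.47 ± 0.05). Between AA and PGE2, 12 were higher and 0 lower with AA on day 1, and 14 higher and 1 lower on day 3.

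**Figure D4:**
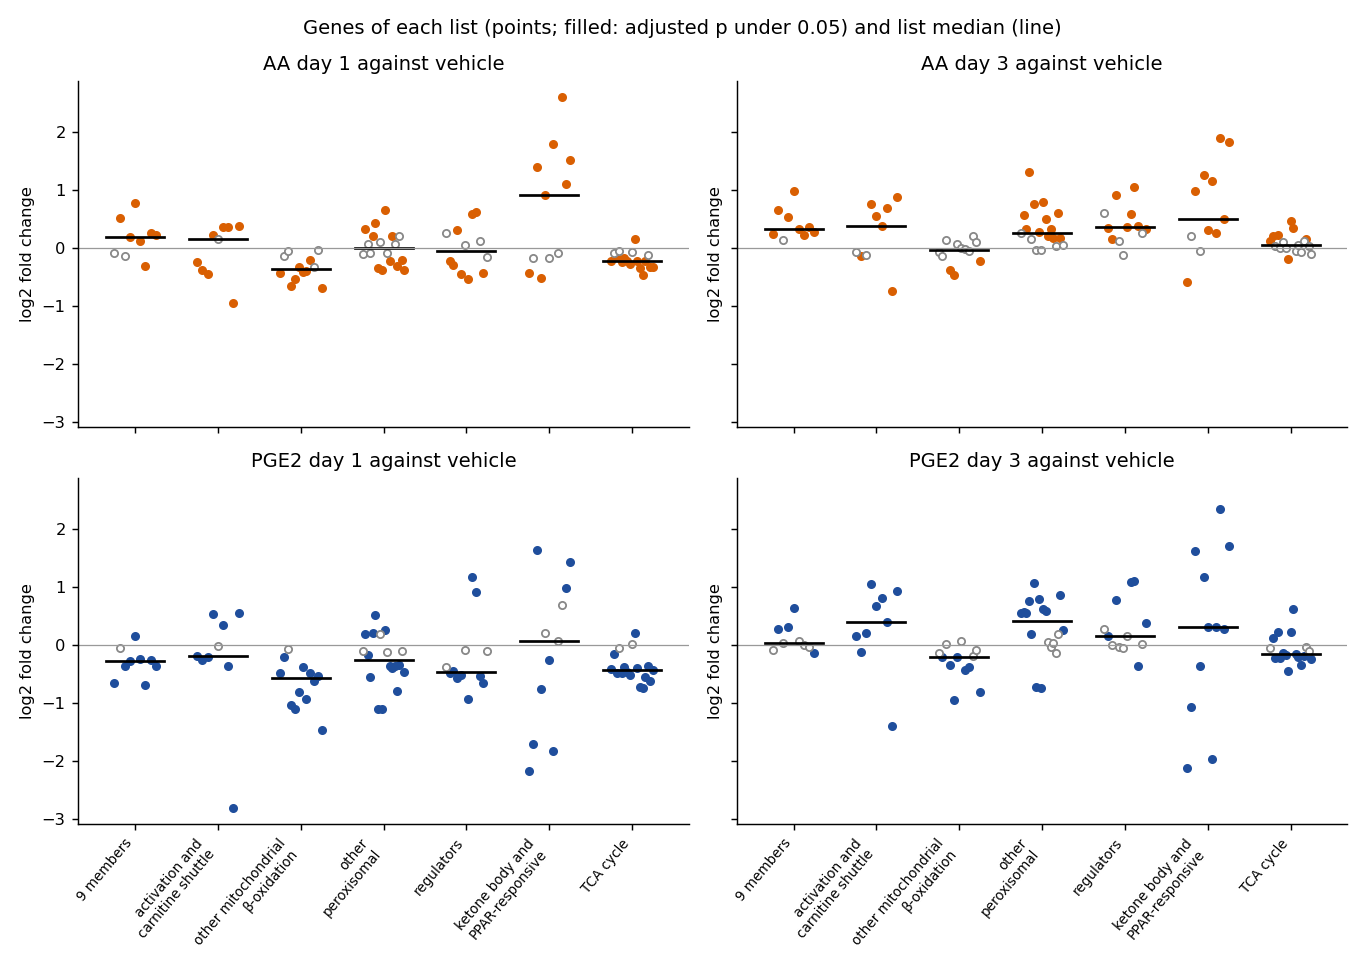
Log2 fold change against vehicle (vertical axis) of every tested gene in the members and 6 other lists, for AA and PGE2 on days 1 and 3; filled points passed an adjusted p of 0.05 and lines are list medians. The members lie at a median of 0.33 with AA on day 3 and -0.28 with PGE2 on day 1, and the other mitochondrial β-oxidation enzymes at -0.03 and -0.58.

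Across the 18 libraries of days 1 and 3 the members fell into partly separate patterns. Pearson correlations of log2 CPM between the 36 pairs of members ran from -0.073 to 0.956, with a median of 0.724, and after subtracting group means from -0.319 to 0.821, with a median of 0.396. These are descriptions over libraries that share treatments and days. Hadha and Hadhb, which share the promoter region shown above, were the closest pair (0.956), but at 0.385 after subtracting group means they were just under the median pair. Cpt1a and Acadl followed (0.953), then Cpt2 and Acadvl (0.928) and Acadm and Ehhadh (0.918). Cpt1a and Ehhadh had the lowest value (-0.073), though 0.493 after subtracting group means. By that measure Acadl and Acadvl were the closest pair (0.821). Per group, the 9 members summed to 805 to 856 CPM in vehicle, 972 to 981 CPM with AA and 666 to 697 CPM with PGE2 on day 1, and to 685 to 758, 952 to 1011 and 769 to 796 CPM on day 3. On day 6 the sums were 940 to 1023 CPM in vehicle and 1059 to 1184 CPM with AA.

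**Figure D5:**
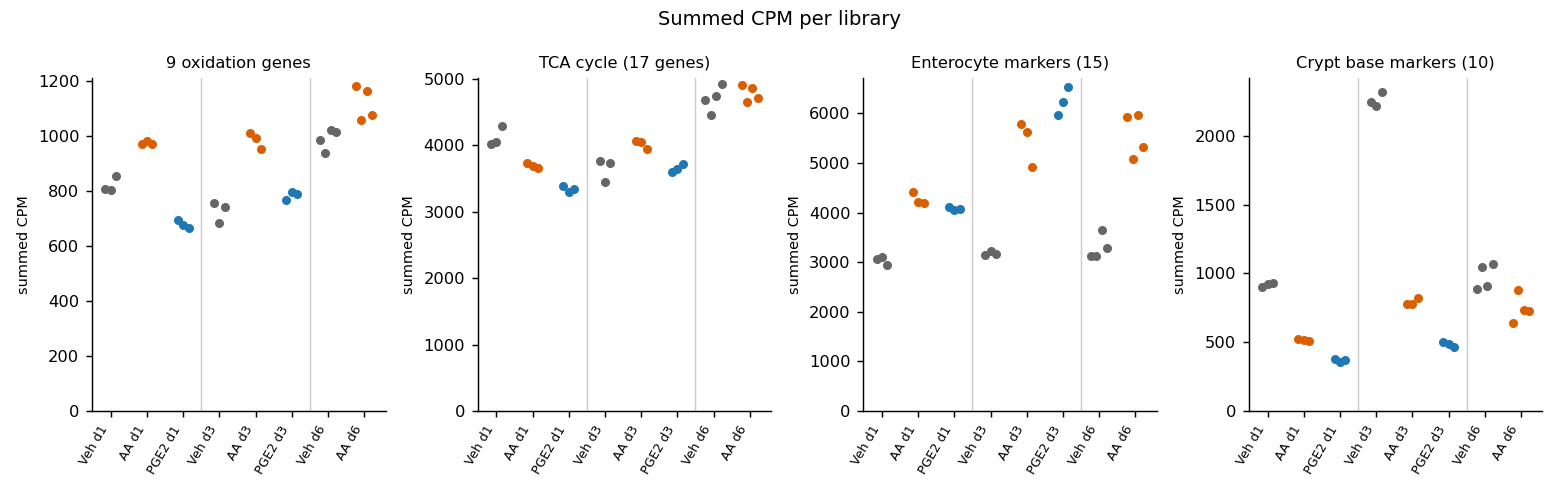
Summed TMM-scaled CPM (vertical axes, from 0) of the 9 members, 17 tricarboxylic acid cycle enzymes, 15 enterocyte markers and 10 crypt base markers in each of the 26 libraries (points), by treatment and day. The members' sum with PGE2 on day 1 (666 to 697 CPM) lies below vehicle (805 to 856), while the enterocyte sum lies above it (4057 to 4116 against 2935 to 3102), with 7 of its 15 genes higher and 6 lower.

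Genes outside the members with the most similar profiles over the same 18 libraries were ranked among 10811 genes by Pearson correlation. Adtrp, a hydrolase of fatty acid esters, was nearest to both Cpt1a (0.906) and Acadl (0.898), and Crot ranked 2 for Cpt1a (0.896). Cyp2c66 was nearest to Acadvl (0.971) and Ugdh to Cpt2 (0.964). Aldh1a1, a retinaldehyde dehydrogenase, was nearest to Hadha (0.930), and Aadac, a lipid esterase, to Hadhb (0.943). Gsta3, a glutathione transferase, was nearest to Acaa2 (0.951), with Etfdh, which passes electrons from the acyl-CoA dehydrogenases to the respiratory chain, ranked 2 (0.947). Aldh2, the mitochondrial aldehyde dehydrogenase, was nearest to Ehhadh (0.975).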

How the data were processed

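The authors deposited raw counts of reads per gene, with day 6 in a table of its own. Trizol was used for RNA and NEBNext Ultra II Directional for the libraries, per the labels' protocols. Tools listed with no role are cutadapt, STAR, limma 3.46 and DESeq2, and the build is given as GRCh38.p6, per the submitters' processing notes. That is a human build, whereas the identifiers are mouse Ensembl identifiers. The sources state neither the counting program nor its strand setting. Of 55385 identifiers 55144 were matched to a name, and the rest held 0.00250% of the counts.

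From these counts, edgeR 4.0.16 in R 4.3.3 gave 11 comparisons: quasi-likelihood tests with robust spread, filterByExpr, TMM scaling (trimmed mean of M values) and Benjamini-Hochberg adjustment over all genes tested, with a threshold of 0.05. Separate fits, with 1 mean per group, used the 18 libraries of days 1 and 3 (12 residual degrees of freedom over 14850 genes), the 8 of day 6 (6 over 14663 genes) and, for the day 6 minus day 3 response, all 26 (18 over 15504 genes). SEs come from the F statistic and 95% intervals are 1.96 SEs on each side. With few residual degrees of freedom these intervals are narrower than the test implies. For Hadha with AA on day 6 the interval was 0.00053 to 0.22, when the quasi-likelihood test gave an unadjusted p of 0.072. CPM values are TMM-scaled within each table. All 30 replicate pairs differed by more than counting error (chi-square per degree of freedom 1.24 to 25.2). All 9 members passed the filters. The test was first tried on simulated counts with changes planted in random genes. A log2 change of 0.5 was called in 44.4% of such genes for AA on day 3 and 63.3% on day 6. Of all calls, 2.31% and 6.02% were false. These genes were of any level, so the values are not rates for the members.

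The members and gene lists were chosen with earlier results of these data known. The text names every member, up to 4 genes of each pathway list with the smallest p for AA on day 3 and 2 in each other comparison with vehicle, list genes under 1 CPM, cell type markers, and the 3 genes nearest each member by correlation. Some genes that this rule selects are not reported here. Alternatives were RLE size factors (relative log expression) in edgeR, the tests of DESeq2 1.42.0, total counts as the only scaling and other filters. Further ones were mitochondrial and rRNA-like genes left out, a replicate block, fits of only the groups compared, and each library left out. Transcript lengths are those of GENCODE vM21.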

Additional observations from a re-analysis of the deposited data

Results flagged for a closer look

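In vehicle organoids of day 6, Acadm had 1 library far above its group, replicate 3 at 83.3 CPM, when the other 3 were at 76.1 to 76.5 CPM. This was 1 of 18 groups of 4 libraries examined, and chance gives such a gap in about 1 of 20.

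The response of several members differed between days. For AA, day 3 minus day 1, the difference was 0.20 for Cpt2, 0.27 for Acadm, 0.36 for Acadvl, 0.33 for Acaa2 and 0.54 for Ehhadh on the log2 scale. For PGE2, the same difference was 0.48 for Cpt1a, 0.31 for Cpt2, 0.40 for Acadm, 0.32 for Acadl, 0.58 for Acadvl, 0.24 for Hadha, 0.23 for Hadhb, 0.56 for Acaa2 and 0.69 for Ehhadh. For AA, day 6 minus day 3, it was -0.64 for Cpt1a, -0.34 for Acadl, -0.41 for Acadvl, -0.27 for Hadha and -0.24 for Acaa2. Each was tested as a difference of fold changes with edgeR, and day 6 comes from a separate table whose library content also differed.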

How the results depend on the processing

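Counts of members called stayed within 1.5 times the reported value except as follows. With total counts as the only scaling, 3 members passed for vehicle on day 3 against day 1 (6 as reported), for the AA response on day 3 minus day 1 (5) and for that on day 6 minus day 3 (5). The AA response on day 3 minus day 1 also held 3 calls with the stricter filter, with mitochondrial and rRNA-like genes left out, with DESeq2 and with only the groups compared, and 3 to 5 when 1 library was left out. The libraries whose removal gave 3 there were vehicle replicate 3 and AA replicates 2 and 3 of day 1, and vehicle replicate 2 and AA replicates 1 and 2 of day 3. For AA on day 6, leaving out 1 library gave 3 to 7 calls, with 3 without vehicle replicate 2, AA replicate 1 or AA replicate 3. No scaling moved the median of all genes by over 0.1.

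Signs changed for values near 0 that had not passed the test. Ehhadh with PGE2 on day 3 went to 0.012 with only the groups compared, and ran from -0.045 to 0.029 with 1 library left out. Acadm in vehicle on day 3 against day 1 went to -0.025 with no filter, and ran from -0.032 to 0.12 with 1 library left out. Hadhb for the AA response on day 3 minus day 1 went to -0.0032 with total counts as the only scaling. Hadhb for that on day 6 minus day 3 went to -0.0073 with mitochondrial and rRNA-like genes left out and -0.0091 with only the groups compared, and ran from -0.042 to 0.060 with 1 library left out. With 1 library left out, Acaa2 with AA on day 6 ran from -0.026 to 0.058, Acadm with PGE2 on day 3 from -0.064 to 0.070, and Acadm in the AA response on day 6 minus day 3 from -0.024 to 0.12. The cause was not tested.

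Replicate numbers gave no clear pairing of the samples. Over 25 same-numbered pairs their deviations correlated at -0.204 to 0.371, and the own number was best in 6. With so few libraries per group, this cannot show whether equal numbers share a culture or mouse. With a replicate block the counts of members called were 7 and 8 for AA on days 1 and 3, 5 on day 6, 8 and 4 for PGE2, 9 and 8 for AA against PGE2, 6 for vehicle, 9 for the PGE2 and 4 for the AA response on day 3 minus day 1 (5 without it), and 5 for day 6 minus day 3.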
